A study of Rattus norvegicus with 15 samples.

Results

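The antioxidant target genes of the transcription factor NRF2 were examined in the liver of rats given the insecticide fipronil. They were 9 genes: Nqo1, Hmox1, Gclc, Gclm, Txnrd1, Srxn1, Slc7a11, Gsr and Osgin1. Every probe of the array that names one of them was taken, by its current symbol or an older alias, which gave 13 probes of 41012. Osgin1 carries its older name Okl38 on the array. Liver RNA came from 15 female Wistar Crl:WI rats aged 2 to 3 months, and each rat had its own one-colour Agilent array. Fipronil, a phenylpyrazole insecticide, was fed by gavage needle once daily to 8 rats, 3 mg/kg each time over 14 days, and 7 rats received the vehicle alone, methylcellulose at 0.5% with Tween 80 at 0.01% in water. RNA was taken from fragments of the large lobe, so that 1 sex, 1 dose and 1 time were sampled. The arrays lay on 4 slides, each with 2 rats of either group, except that slide 3 held 2 fipronil rats and 1 vehicle rat.

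NRF2, encoded by Nfe2l2, is held in the cytoplasm by KEAP1, which passes it to the CUL3 ubiquitin ligase for degradation. Electrophiles and oxidants modify cysteines of KEAP1, after which NRF2 accumulates, pairs with a small MAF protein and binds antioxidant response elements near its targets, a site that BACH1 can occupy instead. In hepatocytes these targets make and recycle glutathione, regenerate thioredoxin, reduce quinones and degrade haem.

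The antioxidant response element was looked for as TGACNNNGC on both strands of the 250 bases before each gene's start, in RefSeq promoters of build GRCr8. Of the 9 genes 7 had a promoter entry, and Gclm and Txnrd1 held a match, against 10.1% of 33469 promoters. Txnrd1 had more than 1 promoter listed and held its match in only 1 of them. The genes with a match and the share of promoters are therefore not counted alike. The surroundings of both matches are shown because they are the only ones found, in the direction of the gene, 5′ to 3′, with the match in capitals; both run on the strand opposite to the gene and so read GCNNNGTCA here.

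Gclm, chr2:213031943-213031991 (+), match 172 bases before the start: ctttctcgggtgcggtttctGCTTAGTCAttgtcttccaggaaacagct

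Txnrd1, chr7:22755954-22756002 (-), match 78 bases before the start of the second of its promoters listed: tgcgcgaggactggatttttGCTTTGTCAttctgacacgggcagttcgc

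A match is a string of letters and not a measured binding site, and a window without one says nothing of elements farther away. Hmox1 and Gsr had no entry.

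Signal here means the log2 intensity of a probe minus that of its array's 75th percentile. Of the 13 probes 10 were tested, covering 7 genes, because they were well above background on at least 7 arrays. Those 10 were well above background on all 15 arrays and saturated on none. Gclm, Slc7a11 and the second probe of Srxn1 were not well above background, on 14, 15 and 15 of the arrays, and no fold is given for them.

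None of the 7 antioxidant targets tested passed between fipronil and vehicle, and the nearest to it were Gsr and Gclc, both of the glutathione system. In limma, 0 of the 10 probes passed a Benjamini-Hochberg adjusted p under 0.05 over all probes, where 191 of 23258 probes did (0.821%), 124 higher (0.533%) and 67 lower (0.288%). At an unadjusted p under 0.05 there were 3 of the 10, against 17.2% of all probes: Gsr and Gclc higher (6.52% of all probes) and 1 of 4 probes of Txnrd1 lower (10.7%). The difference lay above 0 for 8 of the 10 probes and for 45.7% of all probes, and the median difference was 0.11 over the 10 and -0.02 over all. The median of the 10 was 0.30 without slide 2 and -0.06 without slide 4, where 4 of 10 lay above 0, and 0.19 without vehicle rat 5, 0.18 without fipronil rat 4, 0.06 without fipronil rat 8 and 0.06 without vehicle rat 7. Adding array brightness as a covariate gave 0.03, with 6 of 10 above 0. The groups overlapped for every one of the 10 probes, as they did for all but 0.598% of the probes tested. Gsr alone passed under some alternative settings, named with its values.

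The arrays differed between the groups in brightness, in the share of probes well above background and in saturated probes. That share averaged 57.0% ± 1.2 with fipronil (SD, n = 8) and 54.9% ± 2.2 with vehicle (SD, n = 7; exact permutation p = 0.0261). Saturated probes averaged 168 ± 17 (SD, n = 8) and 134 ± 27 (SD, n = 7; exact permutation p = 0.0115), and adjusted p was 0.0435 for both measures. In fipronil rats the arrays' 75th percentile averaged 209.9 ± 25.8 intensity units (SD, n = 8), against 171.5 ± 33.3 in vehicle rats (SD, n = 7; adjusted p = 0.0435 over 5 measures, p = 0.0202 by exact permutation), and local background did not pass (exact permutation p = 0.504). Of the 8 hepatocyte markers, which define the labelled tissue, all were well above background, but Alb, Apoa2, Ttr and Serpina1 were saturated on all 15 arrays and Apoa1 on 11, so that no difference is read from them. The mean signal of the remaining 3, Tat, Cps1 and Hnf4a, ran from 3.68 to 4.05 with fipronil and from 3.67 to 3.98 with vehicle. In RNA of whole tissue, fewer cells of a type and less RNA per cell cannot be told apart.

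**Figure D1:**
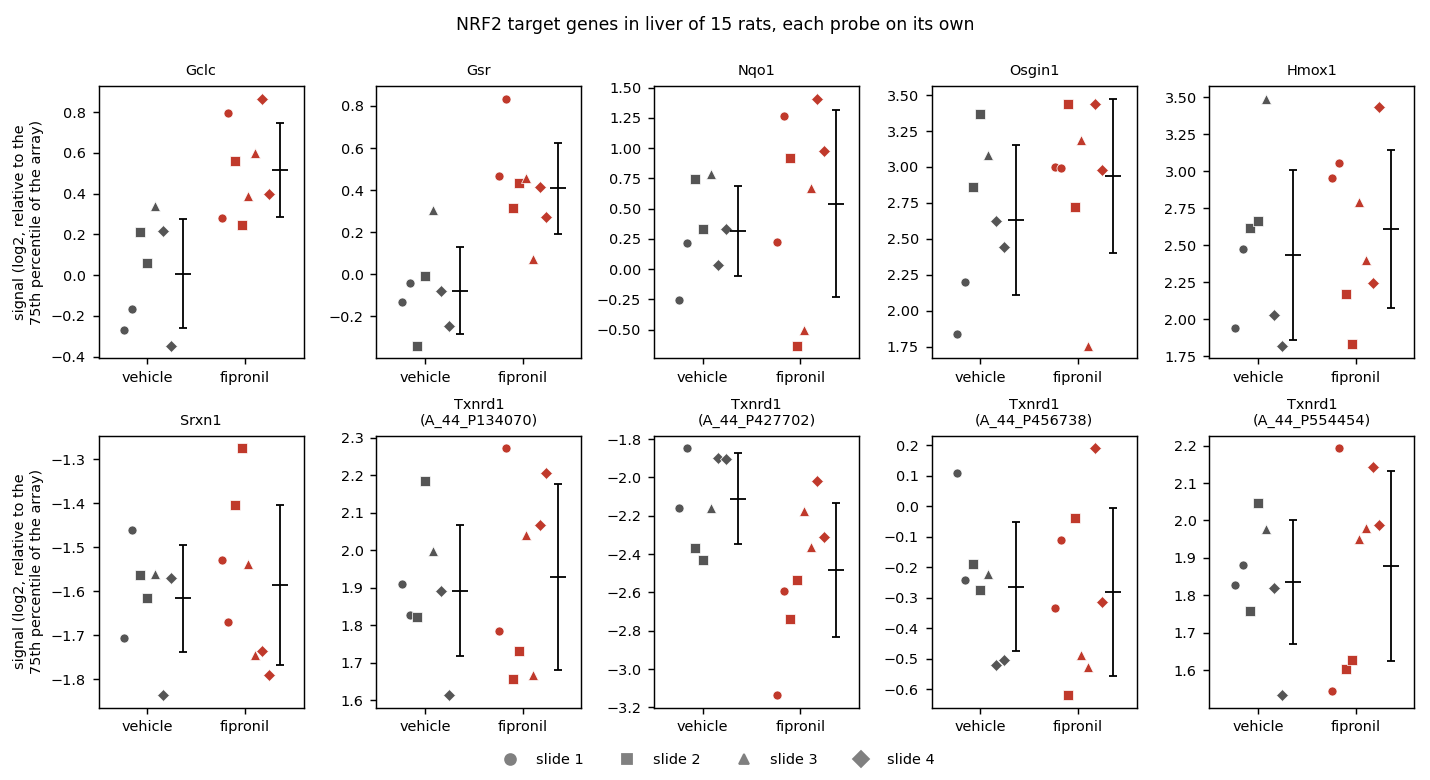
Signal of the 10 tested probes in each rat, one panel per probe, in log2 units above or below the array's 75th percentile; symbols mark the slide, and the bar shows mean and SD of 7 vehicle or 8 fipronil rats. The vertical scales differ between panels. Gclc and Gsr have 6 of 8 fipronil rats above the highest vehicle rat, whereas Nqo1, Osgin1 and Hmox1 are spread widely in both groups.

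Glutathione is made by glutamate-cysteine ligase, whose catalytic subunit is encoded by Gclc and whose modifier subunit by Gclm. The Gclc probe lies on rn4 at chr8:82761662-82761721. Its signal ran from 0.25 through a median of 0.48 to 0.87 in fipronil rats and from -0.35 through 0.06 to 0.34 in vehicle rats. All 8 fipronil rats were above the vehicle mean and 6 were above the highest vehicle rat, so the groups overlapped only in fipronil rats 1 and 4 and vehicle rat 5. The means were 0.52 ± 0.23 (SD, n = 8) and 0.01 ± 0.27 (SD, n = 7), a difference of 0.51 (SE 0.13), or 1.43-fold with a 95% interval of 1.18 to 1.72 (limma adjusted p = 0.0686). On slides 1 to 4 Gclc was higher by 0.76, 0.27, 0.15 and 0.70. It passed under 0 of 32 alternative settings, over which the difference ran from 0.39 to 0.60 and adjusted p from 0.0528 to 0.467. With array brightness as a covariate it was 0.39 (SE 0.15, limma adjusted p = 0.467).

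Gclm, at chr2:218915215-218915274, was well above background in 1 rat only, fipronil rat 8, at a signal of -3.45. The other 7 fipronil rats lay between -6.58 and -6.05 and the 7 vehicle rats between -6.27 and -5.37, at levels the scanner software did not separate from background. The Slc7a11 probe, for the cystine carrier that supplies cysteine for glutathione, spans chr2:139248421-139254202 and was above background in 0 of 15 rats. Neither gene could thus be compared, and a low signal does not show that the transcript was absent.

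Glutathione reductase, encoded by Gsr, returns oxidised glutathione to its reduced form with NADPH. Its probe lies within chr16:62257899-62258792. Signal ran from 0.07 through a median of 0.43 to 0.84 in fipronil rats and from -0.34 through -0.08 to 0.31 in vehicle rats. Again all 8 fipronil rats were above the vehicle mean and 6 were above the highest vehicle rat, which was again vehicle rat 5. The means were 0.41 ± 0.22 (SD, n = 8) and -0.08 ± 0.21 (SD, n = 7), a difference of 0.49 (SE 0.11), or 1.40-fold with a 95% interval of 1.19 to 1.65 (limma adjusted p = 0.0544). By slide the differences were 0.74, 0.55, -0.04 and 0.51, so that slide 3, with vehicle rat 5 as its only control, was the exception.

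The adjusted p of Gsr lay on either side of 0.05 under the alternatives, passing in 7 of 32. Without vehicle rat 5 the difference was 0.55 (limma adjusted p = 0.0243), without fipronil rat 6 it was 0.53 (0.0327), and without slide 3, which held both, 0.60 (0.0203). Quantile normalization of the processed intensity gave 0.49 (0.0499), normexp background correction with quantile normalization 0.37 (0.0363), array weights 0.46 (0.0310) and testing only probes above background on all arrays 0.49 (0.0468). Brightness in the fit gave 0.41 (SE 0.13, limma adjusted p = 0.379).

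**Figure D2:**
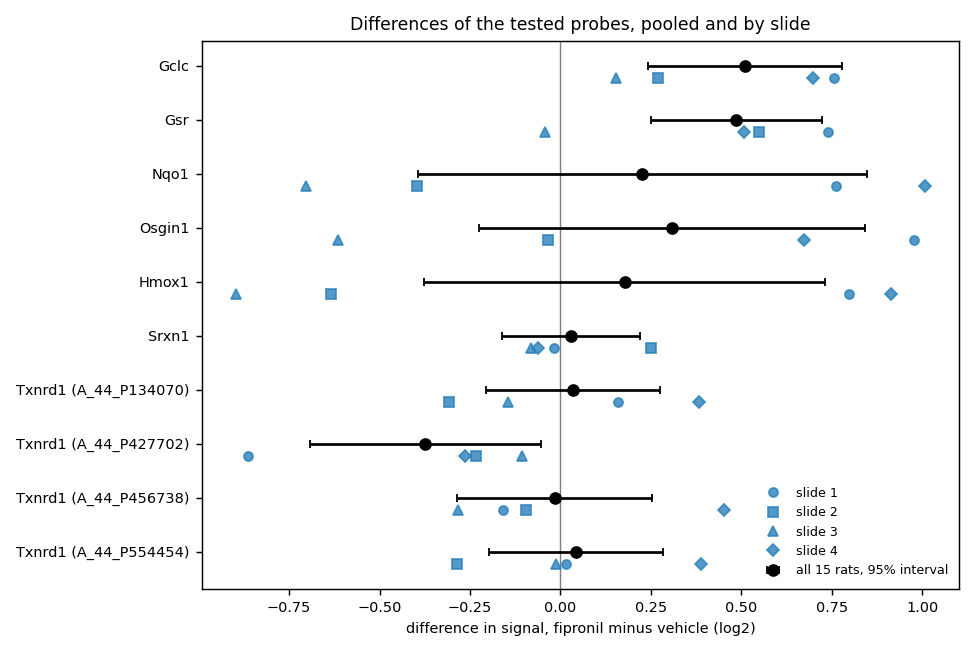
Difference in signal between fipronil and vehicle (log2) for the 10 tested probes: black points with 95% intervals are fitted over all 15 rats, and blue symbols below them are the differences of means within each slide. Gclc lies above 0 on all 4 slides, Gsr on 3, and Nqo1, Osgin1 and Hmox1 lie above 0 on slides 1 and 4 and below 0 on slides 2 and 3.

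NAD(P)H quinone dehydrogenase 1, encoded by Nqo1, reduces quinones in a single step and is a widely used marker of NRF2 activity. Its probe lies at chr19:37256979-37257038. Signal ran from -0.63 through a median of 0.79 to 1.41 in fipronil rats and from -0.25 through 0.33 to 0.79 in vehicle rats. Fipronil rats held both ends: 4 of 8 lay above the highest vehicle rat, and fipronil rats 4 and 5 lay below the lowest. The means were 0.54 ± 0.77 (SD, n = 8) and 0.31 ± 0.37 (SD, n = 7), a difference of 0.23 (SE 0.29, limma adjusted p = 0.744). The 95% interval, 0.761-fold to 1.80-fold, holds changes in either direction. The spread of Nqo1 within groups was larger than that of 94.8% of the probes tested, and its difference by slide was 0.76, -0.40, -0.70 and 1.01. The difference was 0.046 with brightness in the fit (SE 0.36, limma adjusted p = 0.988), and with single rats left out it ran from 0.10 without fipronil rat 7 to 0.39 without fipronil rat 4.

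Osgin1, oxidative stress induced growth inhibitor 1, was measured at chr19:49689658-49689717. Signal ran from 1.76 through a median of 3.00 to 3.44 in fipronil rats and from 1.84 through 2.62 to 3.37 in vehicle rats. Of the 8 fipronil rats 7 were above the vehicle mean, and the remaining one, fipronil rat 6, was the lowest of all 15. The difference was 0.31 (SE 0.25), or 1.24-fold with a 95% interval of 0.856 to 1.79 (limma adjusted p = 0.571), from means of 2.94 ± 0.54 (SD, n = 8) and 2.63 ± 0.52 (SD, n = 7). By slide it was 0.98, -0.03, -0.61 and 0.67. It was 0.48 without fipronil rat 6, 0.18 without vehicle rat 1, 0.04 without slide 1 and 0.54 without slide 3 (limma adjusted p = 0.256, 0.767, 0.971 and 0.243).

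Haem oxygenase 1, encoded by Hmox1, opens the haem ring and releases iron, carbon monoxide and biliverdin. Its probe, at chr19:13969336-13969395, was printed 10 times on each array, and the spread between these spots, which share RNA, labelling and hybridisation, had a median SD of 0.0564 (0.0400 to 0.0728 over arrays). Signal ran from 1.83 through a median of 2.60 to 3.43 in fipronil rats and from 1.82 through 2.48 to 3.49 in vehicle rats. The ranges were nearly the same, and 4 of 8 fipronil rats lay above the vehicle mean. The means were 2.61 ± 0.53 (SD, n = 8) and 2.43 ± 0.58 (SD, n = 7), a difference of 0.18 (SE 0.26), or 1.13-fold with a 95% interval of 0.770 to 1.66 (limma adjusted p = 0.781). The spread within groups was larger than that of 92.4% of the probes tested. The difference was 0.022 with brightness in the fit (SE 0.32, limma adjusted p = 0.994), and with single rats left out it ran from 0.060 without fipronil rat 8 to 0.35 without vehicle rat 5.

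On slides 1 to 4 Hmox1 differed by 0.80, -0.64, -0.90 and 0.91. A test of whether the difference itself varied between slides gave an unadjusted p of 0.00759 for Hmox1 and an adjusted p of 0.392 (limma F test). Over all tested member probes this adjusted p ran from 0.392 to 0.831, and 0 of 23168 probes passed, with 9.34% at an unadjusted p under 0.05. Vehicle rat 5, the only vehicle rat on slide 3, was the highest vehicle rat for Hmox1, Nqo1, Gclc and Gsr. Without slide 3 the differences were 0.36 for Hmox1 and 0.46 for Nqo1 (limma adjusted p = 0.524 and 0.470), and without slide 4 they were -0.10 and -0.04 (0.932 and 0.980).

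Thioredoxin reductase 1, encoded by Txnrd1, regenerates thioredoxin with NADPH, and sulfiredoxin, encoded by Srxn1, repairs overoxidised peroxiredoxins. Txnrd1 had 4 probes on chromosome 7, which are given each on its own. For the probe at chr7:23055528-23055561 signal ran from 1.66 through a median of 1.91 to 2.27 with fipronil and from 1.61 through 1.89 to 2.18 with vehicle. For this probe, the one at chr7:23056700-23056759 and the one within chr7:23073062-23074940, the differences were 0.04, 0.04 and -0.02 (SE 0.11, 0.11 and 0.13; limma adjusted p = 0.913, 0.887 and 0.966). These 3 probes carry the RefSeq transcript's name and showed the groups lying over each other, with 95% intervals between -0.28 and 0.28. Their signs turned under several alternatives.

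The remaining Txnrd1 probe is named for an expressed sequence tag. It lies at chr7:23055604-23055663, between the other probes, with coordinates that run upward where those of the other 3 run downward. Such an order matched the strand of the gene in RefSeq for 95.3% of 8656 probes named by accession, so whether this probe reads the Txnrd1 strand is unsure. Signal ran from -3.14 through a median of -2.45 to -2.02 in fipronil rats and from -2.43 through -2.16 to -1.85 in vehicle rats. Of the 8 fipronil rats 7 were below the vehicle mean and 4 were below the lowest vehicle rat. The means were -2.48 ± 0.35 (SD, n = 8) and -2.11 ± 0.24 (SD, n = 7), a difference of -0.37 (SE 0.15, limma adjusted p = 0.224), and it was negative on all 4 slides (-0.86, -0.23, -0.11 and -0.26). It was -0.22 with brightness in the fit (SE 0.18, limma adjusted p = 0.798), after normexp correction and quantile normalization -0.09, and without slide 1 -0.20. Together with Gclc it made 2 of 10 probes with 1 sign on all slides, against 22.3% of all probes.

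Srxn1 had a probe at chr3:142460556-142460615, whose signal ran from -1.79 through a median of -1.60 to -1.27 with fipronil and from -1.84 through -1.57 to -1.46 with vehicle. The groups shared nearly the same range. The difference was 0.03 (SE 0.09), or 1.02-fold with a 95% interval of 0.894 to 1.17 (limma adjusted p = 0.907), the narrowest interval of the 10. The second Srxn1 probe, which spans chr3:142460445-142468199 and so encloses the first, was above background in 0 of 15 rats.

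The regulators of the pathway were measured too. Nfe2l2 averaged 3.75 ± 0.26 in fipronil rats (SD, n = 8) and 3.82 ± 0.30 in vehicle rats (SD, n = 7), a difference of -0.07 (SE 0.14, limma adjusted p = 0.846). Keap1 averaged 2.38 ± 0.21 (SD, n = 8) and 2.39 ± 0.18 (SD, n = 7), a difference of -0.01 (SE 0.11, limma adjusted p = 0.967), with a sign that turned under 8 of 32 alternatives. The 2 probes of Bach1 differed by -0.10 (SE 0.08) and 0.03 (SE 0.14; limma adjusted p = 0.537 and 0.944). Of 15 measured genes of NRF2 control, these 3 included, 0 rose and 0 fell, and the median was -0.02; here and in the other lists a gene's median and unadjusted p are those of its brightest probe. Only Dpp3, whose product competes with NRF2 for KEAP1, had an unadjusted p under 0.05 by that probe (-0.27, SE 0.10, limma adjusted p = 0.196). A dimmer probe of Syvn1 (-0.23) did too. So did a dimmer probe of Ep300 (0.37), but it was well above background in 8 fipronil rats and only 3 vehicle rats, so no rise is read from it. The brightest Ep300 probe differed by -0.0010. These transcripts say nothing of NRF2 protein, which is regulated by its degradation.

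Around the 9 genes, the list of the glutathione cycle and peroxide removal had 2 of 25 measured genes that rose and 0 that fell, with a median of 0.01. Over all probes 0.533% were called higher and 0.288% lower. The brightest probes of Gpx1 and Sod1 were saturated on all 15 arrays, so no difference is read from them, and the median of the other 23 genes was 0.02. At an unadjusted p under 0.05 were 6 of the 25, 4 above 0 and 2 below, the 2 being Gpx1 and Sod1. Over all probes these shares were 17.2%, 6.52% and 10.7%. Ggt1, gamma-glutamyltransferase, which splits glutathione outside the cell, rose from -2.68 ± 0.39 (SD, n = 7) to -1.13 ± 0.73 (SD, n = 8), by 1.55 (SE 0.28) or 2.92-fold (limma adjusted p = 0.0142), with overlapping groups. After normexp correction of the background and quantile normalization its rise was 0.67, and it was 0.80 in the authors' deposited values; its call was kept in 28 of 32 alternatives. Prdx1, a peroxidase that thioredoxin reduces, rose from 7.17 ± 0.13 (SD, n = 7) to 7.57 ± 0.14 (SD, n = 8), by 0.40 (SE 0.08) or 1.32-fold (limma adjusted p = 0.0278), and its groups did not overlap. The call of Prdx1 was kept in 19 of 32 alternatives; it ended with no filter on dim probes, with the replicate block, with the brightness covariate, without slide 1, 2, 3 or 4 and without fipronil rat 7 or 8 or vehicle rat 1, 2, 6 or 7 (limma adjusted p = 0.0586 to 0.324). Txn1 could not be tested, because too many of its spots were marked as outliers.

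The list of NRF2-responsive conjugation, reduction and export had 2 of 25 measured genes that rose and 0 that fell, with a median of 0.15. Over all probes 0.533% were called higher and 0.288% lower. Many genes of the list are also known to answer to the xenobiotic receptors CAR and PXR. Ephx1, microsomal epoxide hydrolase, rose from 5.00 ± 0.35 (SD, n = 7) to 6.10 ± 0.45 (SD, n = 8), by 1.10 (SE 0.20) or 2.15-fold (limma adjusted p = 0.0129), without overlap. Akr7a3, an aldehyde reductase that acts on aflatoxin, rose by 0.92 (SE 0.21) or 1.90-fold (limma adjusted p = 0.0499), with overlap. The call of Akr7a3 was kept in 10 of 32 alternatives and, of the single rats left out in turn, only without fipronil rat 6 or vehicle rat 3 or 4. In all, 13 of the 25 genes had an unadjusted p under 0.05, 11 above 0 and 2 below, against 17.2% of all probes, 6.52% higher and 10.7% lower. This and the other lists were chosen with earlier results of these data known. The list also counts 1 probe per gene, where the shares count all probes, so no excess of the list is read from them. Among the 11, Gsta3 had a probe saturated on 5 arrays. The 2 below were Aldh3a1 (-0.23) and Gsta2 (-0.24), and the Gsta2 probe was saturated on 14 arrays, where its dimmer probe, saturated on 5, differed by 0.76 (limma adjusted p = 0.0959). A dimmer probe of Abcc4 also had an unadjusted p under 0.05 (-0.36), where its brightest differed by -0.05. With brightness in the fit the calls of Ggt1, Prdx1, Ephx1 and Akr7a3 all ended (limma adjusted p = 0.229, 0.177, 0.124 and 0.276), at differences of 1.26, 0.41, 1.10 and 0.92. The calls of Ggt1 and Ephx1 also ended without slide 1, 2 or 4 (limma adjusted p = 0.0630 to 0.274 and 0.0653 to 0.121).

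The other lists held no gene past the test. Of 8 genes of NADPH supply 0 passed (median -0.03). At an unadjusted p under 0.05 were Tkt, transketolase, whose probe was saturated on 11 arrays so that no difference is read, and Me1, malic enzyme (0.71, SE 0.20, 1.63-fold, limma adjusted p = 0.105). Me1 passed without vehicle rat 3 (0.83, limma adjusted p = 0.0441) and under no other alternative. Of 13 genes of haem and iron handling 0 passed. Of these, 6 had a probe saturated on some arrays, among them Hp, haptoglobin, the gene with the smallest p (limma adjusted p = 0.193), saturated on all 15, and no difference is read from them. Of the 7 without saturation 1, Fech (0.17, SE 0.08), had an unadjusted p under 0.05, and their median was 0.07. A dimmer probe of Cp (-0.51) and one of Tfrc (0.29) had such a p too, where the brightest probes differed by 0.08 and 0.09. Of 13 genes of the ATF4 amino acid response, which also controls Slc7a11, 0 passed (median 0.02, 1 at an unadjusted p under 0.05). The smallest p was that of Slc3a2, which pairs with Slc7a11 in the cystine carrier and is also in the glutathione list (0.36, SE 0.11, limma adjusted p = 0.120).

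**Figure D3:**
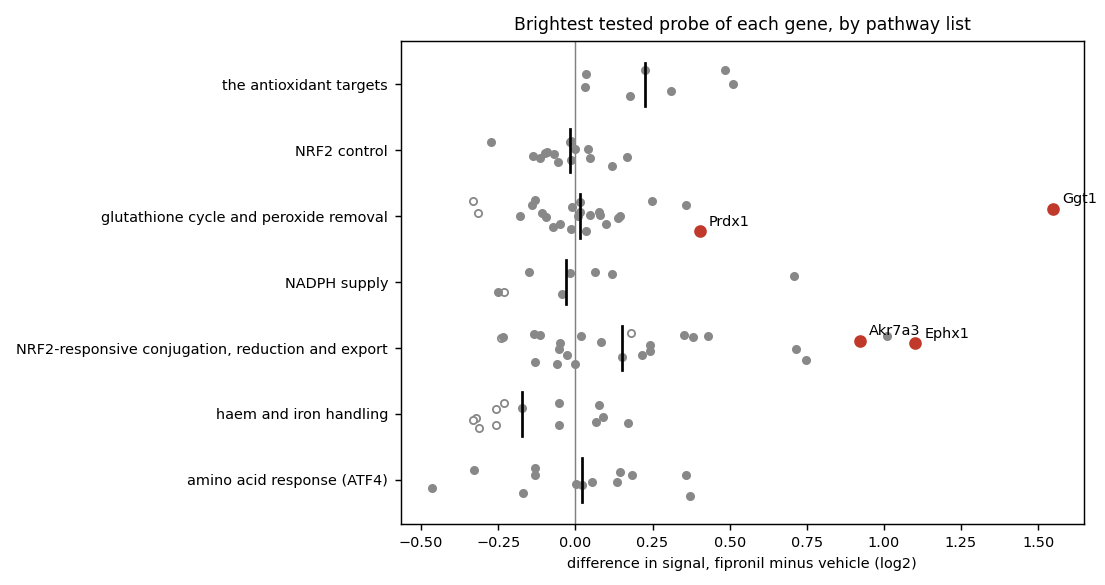
Difference in signal between fipronil and vehicle (log2) for the brightest tested probe of each gene, in the antioxidant targets and 6 pathway lists; black bars are medians, open points are genes whose probe was saturated on some arrays, and red points are the genes past an adjusted p under 0.05. The antioxidant targets have 7 genes and none in red, and Ggt1, Prdx1, Ephx1 and Akr7a3 are the red points of the other lists.

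Markers of the cell types of liver were set beside these values. In each of the 8 marker lists 0 genes passed in limma. At an unadjusted p under 0.05 there were 0 of 3 hepatocyte genes without saturation, 0 of 6 Kupffer cell genes, 1 of 7 stellate and 1 of 5 cholangiocyte genes, and 3 of 5 endothelial genes, all 3 above 0: Kdr (0.29, SE 0.14), Stab2 (0.42, SE 0.12) and Lyve1 (0.52, SE 0.17; limma adjusted p = 0.291, 0.105 and 0.147). Over all probes 17.2% had such a p, and 6.52% had it with a higher signal. The other endothelial markers tested, Vwf (-0.24, SE 0.14) and Cdh5 (-0.08, SE 0.15), lay below 0, while a dimmer Cdh5 probe lay at 0.15. Pecam1 and Tek were not tested, and Clec4g had no probe. The mean signal of the 5 endothelial markers ran from 1.29 to 1.78 with fipronil and from 1.04 to 1.61 with vehicle. The mean signal of 6 of 8 Kupffer cell and macrophage markers ran from 1.19 to 2.41 with fipronil and from 0.48 to 2.46 with vehicle; Marco and Cd5l had no probe. Neutrophil markers were tested for 2 of 6 genes and T, B and NK cell markers for 2 of 8, as markers such as Mpo and Cd3e were not above background on enough arrays. The neutrophil and the T, B and NK cell lists were left out of the relations with members. The other marker lists, without saturated probes, were related to the members across 15 rats as deviations from the group mean. These were 42 relations in all, and 0 passed, with or without slide removed. The closest were Gclc with the 3 hepatocyte markers (r = -0.60, permutation p = 0.0214, adjusted p = 0.601; rho = -0.60, permutation p = 0.0266, adjusted p = 0.597) and Hmox1 with the Kupffer cell list (r = 0.60, permutation p = 0.0286, adjusted p = 0.601; rho = 0.59, permutation p = 0.0284, adjusted p = 0.597). Gclc gave -0.60 without fipronil rat 8 and vehicle rat 5 and -0.78 with slide removed (permutation p = 0.00145, adjusted p = 0.0609), and Hmox1 gave 0.50 without fipronil rat 4 and vehicle rat 6 and 0.51 with slide removed. With the saturated hepatocyte markers kept and slide removed, the relations of the hepatocyte list with Srxn1 (r = 0.81, permutation p = 0.00040, adjusted p = 0.0168) and Gclc (r = -0.79, permutation p = 0.00145, adjusted p = 0.0304) lay under 0.05. Without the saturated markers Srxn1 gave 0.30. Permutations with slide removed moved values between slides and did not count the slide terms fitted, so their p are likely too small. The part of these cells in the values was not tested.

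The members were also compared with each other across rats, with the treatment taken out as deviations from the group mean. Of 21 pairs of the 7 measured genes 17 correlated positively, with a median r of 0.35 and a range from -0.45 to 0.68, and 0 pairs passed an adjusted p under 0.05 by Pearson's r. Nqo1 and Gclc were the closest (r = 0.68, permutation p = 0.00421, adjusted p = 0.0884; rho = 0.75, permutation p = 0.00133, adjusted p = 0.0279). The relation was r = 0.69 without fipronil rats 4 and 5, the 2 rats farthest from the median of Nqo1, and r was 0.81 within fipronil rats and 0.60 within vehicle rats. With slide taken out as well it was 0.74 (permutation p = 0.00367, adjusted p = 0.0385), and with array brightness taken out 0.66 (permutation p = 0.00541, adjusted p = 0.114). Here and in the pairs below, the permutations did not count the slide or brightness terms fitted. With slide removed they also moved values between slides. These p are thus likely too small and decide nothing about a pair. By the r within each group, rats with high Nqo1 tended to have high Gclc, which is a description and was not tested within groups.

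Gsr and Osgin1 had r = 0.42 (permutation p = 0.134, adjusted p = 0.305; rho = 0.40, permutation p = 0.150, adjusted p = 0.249), 0.45 without fipronil rat 2 and vehicle rat 5, and 0.73 with slide removed (permutation p = 0.00365, adjusted p = 0.0385). Hmox1 and Txnrd1 had r = 0.61 (permutation p = 0.0211, adjusted p = 0.222; rho = 0.63, permutation p = 0.0196, adjusted p = 0.206), 0.61 without vehicle rat 5 and fipronil rat 4, and 0.66 with slide removed (permutation p = 0.0110, adjusted p = 0.0768). No pair with Srxn1 passed; its r was negative against Nqo1, Hmox1, Gclc and Txnrd1, the lowest being -0.45 with Txnrd1 (permutation p = 0.129, adjusted p = 0.305; rho = -0.43, permutation p = 0.139, adjusted p = 0.249; -0.49 without fipronil rat 2 and vehicle rat 4). Against Nqo1 it was -0.06 without fipronil rats 4 and 5, -0.67 within fipronil rats and 0.54 within vehicle rats, and against Hmox1 -0.60 and 0.43. Of the 7 measured members, Txnrd1 moved most with array brightness (r = 0.55, permutation p = 0.0215). That p is not adjusted for its being the highest of the 7.

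**Figure D4:**
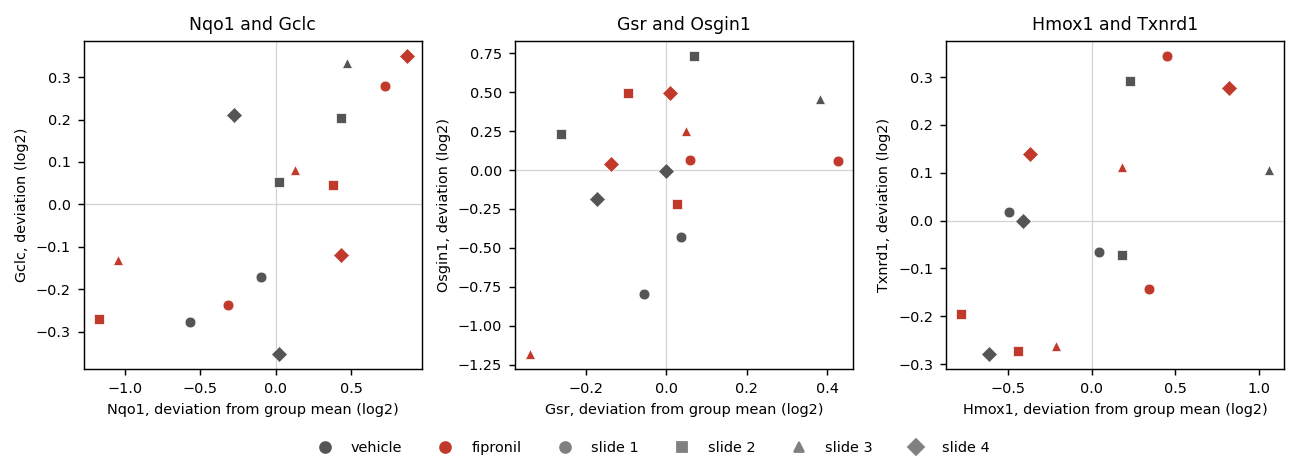
Deviations of signal from the group mean (log2) in 15 rats for 3 pairs of genes: Nqo1 and Gclc (r = 0.68), Gsr and Osgin1 (r = 0.42) and Hmox1 and Txnrd1 (r = 0.61). Colour marks the group and symbol the slide; in the first panel rats high for Nqo1 are mostly high for Gclc in both groups.

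Among 10111 named genes, those whose deviations over the 15 rats were most like Nqo1 were Lims1 (r = 0.79), Vmp1 (r = 0.78) and Rsrp1 (r = 0.77), given as a description. Gclc came 23rd in that order and was the nearest of the members, followed by Hmox1 at 721 and Osgin1 at 1182.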

How the data were processed

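Total RNA of 15 livers was labelled with Cy3 and hybridised to one-colour arrays, per the labels' protocols. The deposited array files hold spot intensity, background subtracted and detrended but not normalized between arrays, from Feature Extraction 9.5.3.1 with probe coordinates on build rn4, per the file headers. The deposited value table of the series holds log2 values, used as an alternative; its columns ranked probes as the log2 median intensity of the same array did, with medians from 7.651 to 7.661, and how its probes were chosen stays unknown. Per the submitters' processing notes the authors used Feature Extraction 9.5 and limma.

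Spots flagged as outliers were dropped, repeat spots were averaged per probe, and the log2 of processed intensity was taken relative to the 75th percentile of the non-control probes of its array. Probes well above background on at least 7 arrays and present on at least 12 entered the comparison of groups by two-sided limma fits (version 3.58.1 under R 4.3.3; lmFit, eBayes), with Benjamini-Hochberg adjustment over all probes. The number of arrays limits the precision. Slides were read from the file of each array. Array quality was compared by exact permutation, correlations by 1e+05 permutations within groups (scipy 1.17.1), and the scripts were tested on simulated data. Symbols were matched to RefSeq genes of GRCr8, 10768 probes by accession, 5060 by symbol and 3398 by synonym. No rn4 genome was used, so the exon under a probe is not given and probes were not searched against related genes.

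The members and lists were chosen with earlier results of these data known. All member probes are described. Of the pathway lists, each gene past the threshold is named, the gene with the smallest p of a list with none, and Nfe2l2, Keap1 and Bach1. The 3 genes most like Nqo1 in deviations are named too.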

Additional observations from a re-analysis of the deposited data

Results flagged for a closer look

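A rat far from the rest of its group was looked for in 26 groups of member probe values, those of untested probes included. Of the 26 groups 2 stood out, where chance gives about 1 in every 20 groups, so no excess is read from them. Gclm was -3.45 in fipronil rat 8, the only rat with the probe well above background, and the next of the 8 fipronil rats was -6.05. On 14 arrays the scanner software had put a substitute value in place of the measured one for this Gclm probe. The gap of Gclm is thus not one between measured values. Osgin1 was 1.76 in fipronil rat 6, and the next lowest of the 8 fipronil rats was 2.72. In neither case was the cause tested.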

How the results depend on the processing

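The count of all probes called, 191, was 90 with no filter on dim probes, 42 with array brightness as a covariate, 37 without slide 1 and 45 without slide 4, and it ran from 102 to 307 with single arrays left out (without fipronil replicate 8 and without vehicle replicate 3). The labels' replicate numbers were not taken as pairs. Same-numbered rats had correlations of deviations from -0.04 to 0.37, and 3 of 7 were closest to their own number. Same-numbered rats mostly shared a slide too, so these values do not decide whether the numbers pair the rats. With the replicate number as a block 97 probes were called and 0 of the member probes, higher or lower. Of the member probes 1, Gsr, was called higher with normexp background correction and quantile normalization, quantile normalization of the processed intensity, only probes above background on all arrays, array weights and without slide 3, and from 0 to 1 with single arrays left out; 0 were called lower in any of the 32 alternatives. Gclc, Gsr and Osgin1 and the Txnrd1 probe of the expressed sequence tag kept their direction in all alternatives. Small differences turned. Srxn1 was -0.042 without slide 2 (-0.015 to 0.059 with single arrays left out), Hmox1 -0.044 without slide 1 and -0.10 without slide 4, Nqo1 -0.043 without slide 4, and Nfe2l2 0.0073 without slide 1. The Txnrd1 probe at 23055528 was -0.0038 with the replicate block, -0.12 with the brightness covariate, -0.0075 without slide 1 and -0.089 without slide 4 (-0.014 to 0.084 with single arrays left out). The Txnrd1 probe at 23073062 was 0.0025 with slide as a block and 0.044, 0.012 and 0.066 without slides 1, 2 and 3 (-0.084 to 0.046 with single arrays left out). The Txnrd1 probe at 23056700 was -0.089 with the brightness covariate, -0.0054 with array weights and -0.082 without slide 4 (-0.0064 to 0.092 with single arrays left out). Keap1 was 0.00097 with normexp, 0.0050 with slide as a block, 0.0052 with array weights, and 0.051 and 0.048 without slides 1 and 3 (-0.062 to 0.056 with single arrays left out). Pairs of members past the test numbered 2 with slide removed in place of 0, by permutations whose p are likely too small because the slide terms were not counted. The cause of these changes was not tested. The test of slides against each other, brightness removed from the pairs, the marker relations, leaving out saturated markers and the settings of list genes were chosen after seeing the data. With 15 arrays a difference in a widely spread gene is loosely bounded, as the interval of Nqo1 shows, and probes not well above background give no comparison.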
